A study of Mus musculus with 6 samples.

Results

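The genes described here are 10 members of the Notch pathway: the receptor genes Notch1, Notch2 and Notch3, the ligand genes Dll1, Dll3 and Jag1, and the target genes Hes1, Hes5, Hey1 and Nrarp. They were chosen by name, and all 10 were found among the 42396 genes of each count table. RNA was sequenced from primary cultures of wild-type mouse ventral midbrain, taken at embryonic day 14 and plated at 150000 cells per well. On the day of plating, the cells were infected at a multiplicity of 5 with the lentiviral vector pll3.7. It carried either the hairpin shRmstI against circRmst, a circular RNA of the Rmst locus (3 knockdown libraries), or the scramble hairpin Scr2 (3 scramble control libraries). RNA was collected at 3 days in vitro from 2 to 3 wells per condition, so both groups carried the virus and each was made with 1 hairpin. The labels count 3 independent cultures without tying libraries to them, so p-values measure the spread between these libraries, which may be technical. The tables have no row of its own for circRmst, and its knockdown was not analysed here.

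Notch receptors are membrane proteins that are cut when a Delta or Jagged ligand on a neighbouring cell binds them. The freed intracellular part enters the nucleus, joins the DNA-binding protein Rbpj and switches on Hes and Hey genes, whose proteins repress proneural genes. In the embryonic midbrain cells with active Notch tend to stay radial glia, while cells that present much ligand tend to become neurons.

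The libraries held between 35256611 and 43646521 counts in the knockdown and between 27248934 and 41982557 counts in the control. The members together took between 18549 and 25544 of these counts per knockdown library and between 15499 and 20994 per control library. The labels call the cells dopamine neurons, and all 10 listed markers of such neurons had a mean of at least 1 CPM (the count scaled to library size by edgeR's TMM method). Their summed level was between 519 and 617 CPM in the knockdown and between 539 and 635 CPM in the control. Markers of radial glia and progenitors, the cells in which Notch is best known to act, were also present, 14 of 14 at a mean of at least 1 CPM. Their sum was between 2459 and 2701 CPM in the knockdown and between 2316 and 2806 CPM in the control. These are whole cultures, in which fewer cells of a type and less RNA per cell cannot be told apart.

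No member differed between knockdown and control past the threshold. In edgeR's quasi-likelihood test over 17439 genes, 0 of 10 members had an adjusted p under 0.05, and each had an adjusted p of 1.00. The count over all genes tested was also 0 (0%). At an unadjusted p under 0.05 there were 0 members, and 191 genes in all (1.1%). Evenly spread p-values would put a share of about 0.05 there, so the p-values of this fit ran high. The cause was not tested. DESeq2 and limma voom called 0 members as well. The fold changes were small and closely bounded. The 95% interval stayed inside a 1.5-fold change up or down for 9 of 10 members, Dll3 being the exception, and within a 2-fold change for all 10. Among all genes tested, 65% had an interval within 1.5-fold. Of the members, 7 lay above the control and 3 below, and their median log2 fold change was 0.04. That count moved with single libraries, to 5 above and 5 below without control replicate 1 and to 9 above and 1 below without knockdown replicate 3. Of all genes tested, 48.1% lay above, with a median of -0.00603.

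**Figure D1:**
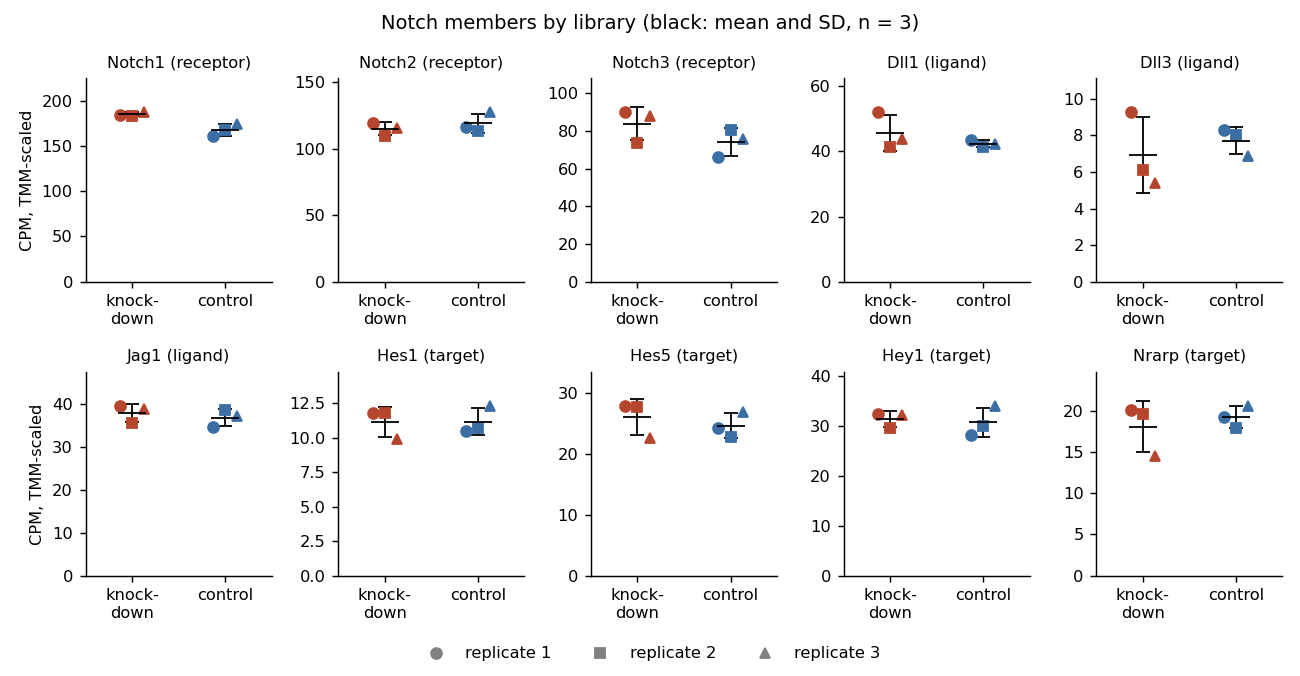
TMM-scaled CPM of each member in the 3 knockdown libraries (red) and the 3 control libraries (blue), with the symbol giving the replicate number and the black bars the mean and SD. Notch1 is the member whose groups do not overlap, with all knockdown libraries between 183 and 187 CPM and all control libraries between 161 and 174 CPM.

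Among the receptors, Notch1 had the smallest p of all members. It is the receptor best known for holding neural progenitors undifferentiated, and lies on chromosome 2 from 26457902 to 26503822 (GRCm38). Its level was 184, 183 and 187 CPM in knockdown replicates 1, 2 and 3, and 161, 168 and 174 CPM in control replicates 1, 2 and 3. Every knockdown library lay above every control library, and the spread was smaller in the knockdown, with 185 ± 2.07 CPM against 168 ± 6.39 CPM in the control (SD, n = 3 each). Notch1 had a log2 fold change of 0.14 ± 0.087 (SE), and its 95% interval, from -0.05 to 0.33, includes no change (edgeR unadjusted p = 0.133, adjusted p = 1.00). Notch1 was thus 1 member of 10 with no overlap between the groups. Over all genes tested 5.2% had none in either direction, and 2.28% had none and were higher in the knockdown. The deposited FPKM values, which are scaled to transcript length, were 9.65, 9.87 and 9.40 FPKM in the knockdown and 8.42, 8.63 and 8.96 FPKM in the control. They did not overlap, but they come from the same libraries and are not a separate measurement. How many of all genes have no overlap in FPKM was not determined. With 1 library left out, the log2 fold change of Notch1 ran from 0.12 to 0.18.

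Notch2, a receptor of radial glia and many other tissues, lies on chromosome 3 from 98013538 to 98150367. It had 120, 110 and 116 CPM in the knockdown replicates and 116, 113 and 127 CPM in the control replicates. The groups overlapped, with the highest level in control replicate 3 and the lowest in knockdown replicate 2. The log2 fold change of Notch2 was -0.048 ± 0.092 (SE), with an interval from -0.25 to 0.16.

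Notch3, on chromosome 17 from 32120820 to 32166896, encodes a receptor of pericytes and smooth muscle as well as of progenitors. It had 89.7, 73.6 and 87.9 CPM in the knockdown replicates and 65.9, 80.1 and 75.9 CPM in the control replicates. Knockdown replicates 1 and 3 lay above all control libraries, and knockdown replicate 2 lay below control replicates 2 and 3. Its log2 fold change of 0.18 ± 0.11 (SE) was the largest of the members, with an interval from -0.070 to 0.43 (edgeR unadjusted p = 0.142, adjusted p = 1.00). Without control replicate 1 it was 0.11, and without knockdown replicate 2 it was 0.26. The summed level of 11 mural cell markers was 244, 282 and 220 CPM in the knockdown replicates and 237, 303 and 297 CPM in the control replicates, and its part in the values of Notch3 was not tested. Of these markers 8 had a mean of at least 1 CPM, and Kcnj8, Myh11 and Des were below it.

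**Figure D2:**
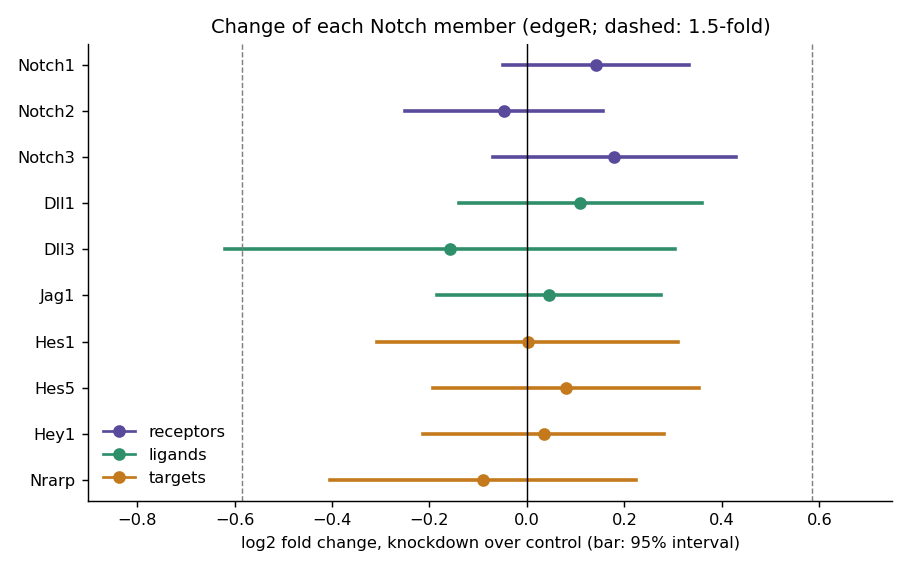
Log2 fold change of each member, knockdown over control, as points with 95% intervals from edgeR. All 10 intervals include 0, and that of Dll3, from -0.62 to 0.30, is the one that crosses the dashed line of a 1.5-fold change.

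Set against each other per transcript length, Notch1 was the most abundant of the receptor members and Notch3 the least. Over all 6 libraries Notch1 averaged 9.16 FPKM (8.42 to 9.87), Notch2 5.93 FPKM (5.68 to 6.53) and Notch3 4.87 FPKM (4.07 to 5.60), and these ranges did not overlap. Notch2 made up 28.3% ± 0.260 of the summed FPKM of these receptors in the knockdown and 31.2% ± 1.59 in the control (SD, n = 3 each). Its share was lower in each knockdown library than in any control library, from 28.0% to 28.4% against 29.4% to 32.5%. In an exact two-sided permutation test this gave p = 0.1, and p = 0.333 after Benjamini-Hochberg adjustment over the 10 shares tested. No unadjusted p below 0.1 is possible with 3 libraries a side, so no share could pass the threshold and the test cannot decide. Of the 10 shares, only those of Notch2, Dll1 and Nrarp did not overlap between the groups. Shares of the same sum are tied to one another, and how often shares of other genes do not overlap was not determined. The share of Notch1 was 46.6% ± 1.55 in the knockdown and 45.1% ± 0.753 in the control, and the groups overlapped.

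The ligand members were spread more widely in level. Dll1, the Delta ligand of progenitors and newborn neurons, lies on chromosome 17 from 15367354 to 15376932. It had 52.0, 41.4 and 43.7 CPM in the knockdown replicates and 43.5, 41.2 and 42.3 CPM in the control replicates. Apart from knockdown replicate 1 the libraries lay close together. The log2 fold change of 0.11 ± 0.11 (SE) became 0.0063 without that library.

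Dll3, on chromosome 7 from 28293555 to 28301785, encodes a divergent Delta protein that acts within the cell that makes it and does not activate Notch in neighbours. It had 403, 211 and 225 counts in the knockdown replicates and 339, 317 and 191 counts in the control replicates, the fewest of any member. Its scaled level was 9.26, 6.12 and 5.38 CPM in the knockdown and 8.27, 8.01 and 6.87 CPM in the control. Knockdown replicate 1 was the highest of all libraries, and the other two knockdown libraries were the lowest. The log2 fold change was -0.16 ± 0.21 (SE), with the widest interval of the members, from -0.62 to 0.30. Without knockdown replicate 1 it was -0.43, with an unadjusted p of 0.0441 and an adjusted p of 1.00 in edgeR, and without knockdown replicate 3 it was 0.0064.

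Jag1, on chromosome 2 from 137081451 to 137116520, encodes the Jagged ligand mutated in Alagille syndrome in humans. It had 39.6, 35.7 and 38.8 CPM in the knockdown replicates and 34.7, 38.6 and 37.3 CPM in the control replicates, with overlapping groups. Jag1 had a log2 fold change of 0.046 ± 0.10 (SE), with an interval from -0.18 to 0.28. It was 0.0069 without control replicate 1 and 0.094 without control replicate 2.

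Per transcript length, the ligand members ranked Dll1, Jag1 and Dll3, with ranges that did not overlap. Dll1 averaged 5.97 FPKM over the 6 libraries (5.40 to 7.20), Jag1 2.90 FPKM (2.72 to 3.07) and Dll3 1.75 FPKM (1.24 to 2.30). Jag2, a Jagged ligand that is not among the members, stood above all of them at 9.34 FPKM (7.74 to 10.1). Dll4, the Delta ligand of blood vessels, stood below them at 0.656 FPKM (0.449 to 0.808). Of the summed FPKM of the ligand members, Dll1 made up 57.8% ± 0.854 in the knockdown and 54.6% ± 1.87 in the control (SD, n = 3 each). Again the groups did not overlap. The exact permutation test (two-sided p = 0.1, adjusted p = 0.333) cannot decide here either, since 0.1 is its smallest possible p. Endothelial markers, relevant to Dll4, summed to between 24.6 and 28.7 CPM in the knockdown and between 25.3 and 30.9 CPM in the control, and 5 of 11 had a mean of at least 1 CPM.

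**Figure D3:**
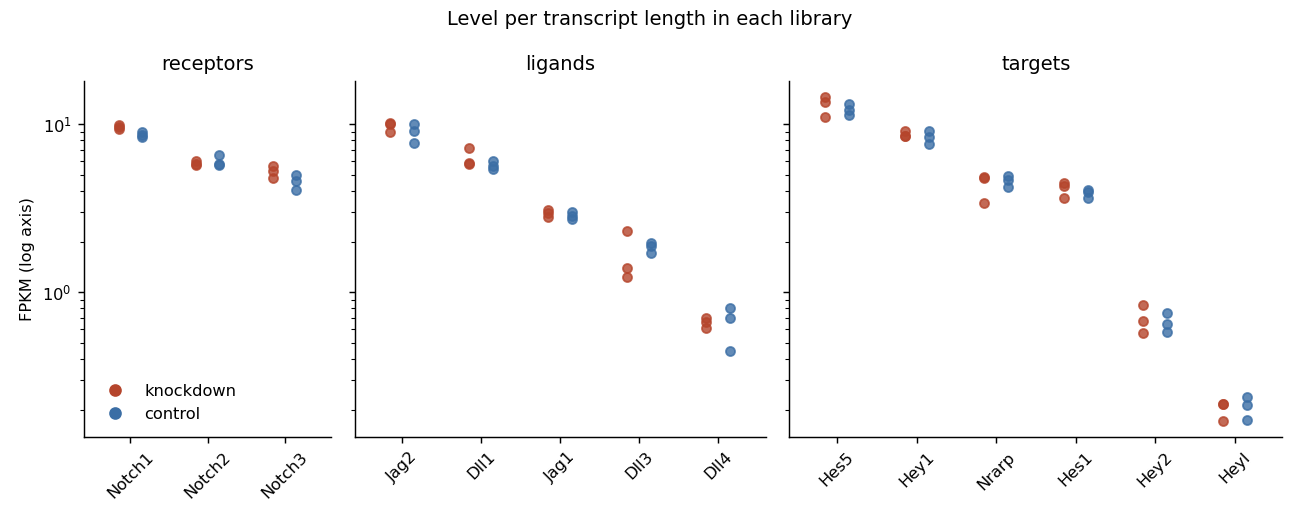
FPKM of receptors, ligands and Hes and Hey family targets in each library on a log axis, knockdown in red to the left and control in blue to the right. Jag2 lies above the ligand members and Dll4 below them, while Hes5 is the most abundant of the targets shown.

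The target members are genes switched on by Notch. Hes5, a repressor of proneural genes whose transcription depends closely on Notch, lies on chromosome 4 from 154960626 to 154962372. The 250 bases before its start are shown because they carry the core recognised by Rbpj, TGGGAA. Those of Nrarp, the other target with an entry in the RefSeq promoter table (GRCm38.p6), are shown for comparison. Capitals mark TGGGAA on either strand and CACGNG, the site class bound by Hes and Hey proteins. Both sequences are on the plus strand and end just before a transcript start in that table, which for Hes5 lies inside the span given above.
Hes5, chr4:154960673-154960922: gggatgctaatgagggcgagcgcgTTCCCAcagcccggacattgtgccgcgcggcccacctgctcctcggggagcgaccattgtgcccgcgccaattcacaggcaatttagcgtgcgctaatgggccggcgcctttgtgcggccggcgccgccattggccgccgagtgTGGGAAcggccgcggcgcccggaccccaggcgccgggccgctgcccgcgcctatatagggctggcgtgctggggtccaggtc
Nrarp, chr2:25180508-25180757: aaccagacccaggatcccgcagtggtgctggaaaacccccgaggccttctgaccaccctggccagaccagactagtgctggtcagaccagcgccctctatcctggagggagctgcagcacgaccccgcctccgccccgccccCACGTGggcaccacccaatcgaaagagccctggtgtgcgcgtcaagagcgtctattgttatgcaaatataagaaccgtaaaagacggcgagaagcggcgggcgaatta

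The Hes5 window held TGGGAA at 2 places, 226 to 221 bases before the start on the opposite strand and 82 to 77 bases before it on the strand of the gene. Of 9 windows of the 8 members with an entry (Dll1 has 2), that of Hes5 alone held this motif, and 21.6% of all 32851 promoter windows of this length held it. CACGNG, searched on both strands, was in 6 of the 9 windows, both windows of Dll1 among them, and in 23.5% of all. CACNAG, the N-box bound by Hes proteins, was in 4 of the 9 and in 36.7% of all. CACGAG belongs to both of these motifs and was counted under each. The bases G and C made up between 52.0% (Dll3) and 72.0% (Notch2) of the member windows, and windows of like content were not compared. A match of letters is a description and not a measured site.

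Hes5 had 27.9, 27.7 and 22.6 CPM in the knockdown replicates and 24.2, 22.9 and 27.0 CPM in the control replicates. Knockdown replicate 3 had the lowest level of all and knockdown replicate 1 the highest, so the groups overlapped over their whole range. For Hes5 the log2 fold change was 0.080 ± 0.12 (SE), with an interval from -0.19 to 0.35. It was 0.028 without knockdown replicate 1 and 0.18 without knockdown replicate 3.

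Hes1, on chromosome 16 from 30065357 to 30067796, encodes a repressor that oscillates in progenitors and answers to other signals beside Notch. It had 11.8, 11.8 and 9.89 CPM in the knockdown replicates and 10.5, 10.7 and 12.3 CPM in the control replicates. The means were the same to 3 digits, 11.2 ± 1.10 CPM in the knockdown and 11.2 ± 0.985 CPM in the control (SD, n = 3 each), and the log2 fold change was 0.0013 ± 0.14 (SE). Its interval ran from -0.31 to 0.31, so a change of up to 1.24-fold upward was within it.

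Hey1, on chromosome 3 from 8663359 to 8667038, encodes a related repressor that acts downstream of Notch in brain and vessels. It had 32.5, 29.6 and 32.3 CPM in the knockdown replicates and 28.2, 30.0 and 34.0 CPM in the control replicates. The control libraries held both the highest and the lowest value. Hey1 thus had a log2 fold change of 0.034 ± 0.11 (SE), with an interval from -0.21 to 0.28.

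Nrarp, on chromosome 2 from 25180758 to 25183339, encodes an ankyrin-repeat protein that binds the Notch intracellular domain and feeds back to limit the signal. It had 20.1, 19.6 and 14.5 CPM in the knockdown replicates and 19.2, 17.9 and 20.5 CPM in the control replicates. Knockdown replicate 3 lay apart from the other 5 libraries. The log2 fold change was -0.090 ± 0.14 (SE), with an interval from -0.40 to 0.22, and it was 0.056 without that library. Its share of the summed FPKM of the target members was 14.3% ± 1.32 in the knockdown and 15.8% ± 0.498 in the control (SD, n = 3 each), without overlap. As for the other shares, the exact permutation test (two-sided p = 0.1, adjusted p = 0.333) cannot decide, since 0.1 is its smallest possible p.

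Per transcript length, Hes5 was the most abundant member, at 12.6 FPKM over the 6 libraries (11.0 to 14.4), above 79.3% of the genes tested. Hey1 followed at 8.50 FPKM (7.65 to 9.05). Nrarp at 4.45 FPKM (3.39 to 4.88) and Hes1 at 4.00 FPKM (3.62 to 4.47) overlapped each other. In the order of all 10 members Hes5 came first, followed by Notch1 and Hey1, whose ranges overlapped. Dll1 and Notch2 came next and overlapped, then Notch3, Nrarp and Hes1, and Jag1 and Dll3 were last. The range of Notch3 overlapped with those of Dll1, Nrarp and Hes1. The related genes Hey2 and Heyl, well known in heart and vessels, were far lower, at 0.678 FPKM (0.569 to 0.841) and 0.205 FPKM (0.172 to 0.238).

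**Figure D4:**
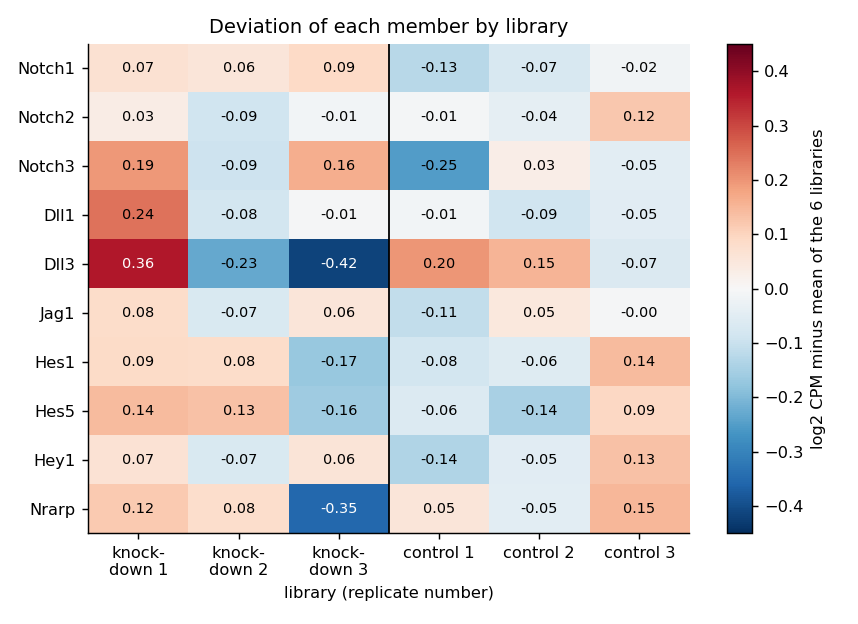
Deviation of each member's log2 CPM from its mean over the 6 libraries, with knockdown libraries left of the line and control libraries right of it. Knockdown replicate 1 is above the mean for all 10 members, and knockdown replicate 3 is lowest for Dll3, Hes1, Hes5 and Nrarp.

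Apart from Notch1, each member's knockdown and control libraries overlapped. In knockdown replicate 1 all 10 members stood above their mean over the 6 libraries, by between 0.033 (Notch2) and 0.36 (Dll3) log2 units. The number above was 4 in each of the other knockdown libraries, and 2, 3 and 5 in control replicates 1, 2 and 3. The share of all genes above their mean in each library was not determined, so these counts cannot be called particular to the members. The targets Hes1, Hes5 and Nrarp shared a low value in knockdown replicate 3, at -0.17, -0.16 and -0.35 log2 units, and were all above their mean in control replicate 3, at 0.14, 0.092 and 0.15. Hey1 did not share the low value, at 0.057 in knockdown replicate 3. The receptor Notch1 stood at 0.088 in that library, its highest value. It stood at 0.068 and 0.056 in knockdown replicates 1 and 2, where Hes1, Hes5 and Nrarp were also above their mean. Radial glia markers summed to 2701 CPM in knockdown replicate 3, the highest sum of the knockdown libraries. Their sum was 2806, 2316 and 2753 CPM in control replicates 1, 2 and 3. Of these markers 4 lay above the control and 10 below, and their part in the values of the targets was not tested. Knockdown replicate 3 also had the smallest share of counts on the ribosomal RNA gene Rn28s1, 1.01%. The others had between 2.90% and 4.49%, and the part of this share in the values was not tested. Between the lowest and the highest library the members differed by 0.19 log2 units for Jag1 and by 0.78 for Dll3, the narrowest and the widest range.

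Among 158 other pathway and marker genes that averaged 1 CPM or more, the nearest profile to each member was found by the root mean square difference of centred log2 CPM over the 6 libraries. For Notch1 and for Hey1 it was Lfng, a Fringe gene whose enzyme adds sugar to Notch receptors, with differences of 0.059 and 0.049 log2 units. For Hes1 and for Hes5 it was Vim, an intermediate filament gene of radial glia, with 0.065 and 0.079. Jag2 was nearest to Notch3 (0.081), Epn2 to Notch2 (0.068), Psen2 to Dll1 (0.070), Neurl1b to Jag1 (0.056) and Snw1 to Nrarp (0.087). For Dll3 the nearest, Nhlh2, was less alike (0.17). The median difference over the candidates was between 0.18 and 0.31 log2 units. Each nearest gene was picked as the smallest difference, so it lies below that median by construction. Genes outside these lists were not compared, and shared regulation was not tested.

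The rest of the pathway was read from lists of 87 genes, of which 77 were tested. None passed the threshold: 0 were higher and 0 lower at an adjusted p under 0.05 in edgeR, and 2 had an unadjusted p under 0.05, both from the nuclear complex. Together 39 of the 77 lay above the control and 38 below.

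Among the other receptors and ligands 5 of 6 tested lay above the control, and the median log2 fold change was 0.070. The Delta-like gene Dlk2 had 0.14 ± 0.12 (SE) and Jag2 0.11 ± 0.10. Without control replicate 1 these were 0.045 and 0.028. Among 10 genes of receptor cleavage, the proteases and the gamma-secretase complex, 7 lay above and 3 below, with a median of 0.032. Furin, the protease that matures the receptors, had 0.11 ± 0.11 (SE). Among 9 genes of glycosylation the median was -0.00852, with Lfng at 0.087 ± 0.11 and the low Fringe gene Mfng at 0.38 ± 0.35. Knockdown replicate 1 held 125 counts of Mfng and the other knockdown libraries 51 and 55, and its log2 fold change was -0.059 without that library.

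Among 16 genes of endocytosis and ubiquitination, which ready ligands for signalling or remove receptors, 12 lay above and 4 below, with a median of 0.041. The ubiquitin ligase genes Mib1, needed for ligand activity, and Nedd4 had 0.12 ± 0.12 and 0.099 ± 0.10. With 1 library left out, Mib1 ran from 0.043 to 0.22 and Nedd4 from 0.062 to 0.14. Among 20 tested genes of the nuclear complex 6 lay above and 14 below, with a median of -0.057. Rbpj itself had 0.058 ± 0.10, at 62.6 ± 2.00 CPM in the knockdown and 60.1 ± 5.07 CPM in the control (SD, n = 3 each). In the deposited FPKM values the direction of Rbpj was the opposite, with 7.79 ± 1.42 FPKM in the knockdown and 8.81 ± 0.561 FPKM in the control, and the groups overlapped on both scales.

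Among the genes of this list are those for corepressor proteins, which with Rbpj hold targets silent when Notch is off. The histone deacetylase gene Hdac1 had 15.5, 13.8 and 14.8 CPM in the knockdown replicates and 18.0, 15.9 and 19.4 CPM in the control replicates, with no overlap and a log2 fold change of -0.27 ± 0.12 (SE, edgeR unadjusted p = 0.0494, adjusted p = 1.00). In FPKM the Hdac1 groups overlapped, at 5.37, 5.64 and 5.38 FPKM in the knockdown and 6.41, 5.43 and 7.41 FPKM in the control. Its unadjusted p was above 0.05 with DESeq2 (0.0658), with limma voom (0.0628) and with limma on log2(FPKM + 0.1) (0.120), where the adjusted p was 1.00 in each. A second copy of Hdac1 is listed in the count tables, so its level is uncertain. Tle4, a Groucho corepressor gene named after its values were seen, also had no overlap in CPM, at -0.13 ± 0.091, while its FPKM values overlapped. Of the 20 tested genes of this list, 3 were lower in the knockdown without overlap in CPM and 0 were higher. Of all genes tested, 2.92% were lower in the knockdown without overlap. Whether the list departs from that share was not tested.

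Proneural genes, which Hes proteins repress, did not pass the threshold either. Of 9 tested proneural and early neuronal genes, 1 lay above the control and 8 below, and the median log2 fold change was -0.12. Nhlh1, a gene for a helix-loop-helix protein of young neurons, had -0.38 ± 0.40 (SE) at about 1 CPM, and was 0.063 without control replicate 1. Among other Hes and Hey family genes, with 7 tested and a median of 0.000108, the smallest p-values were those of Heyl (-0.15 ± 0.28) and Helt (-0.20 ± 0.50), both at low counts. Dividing cell markers summed to 324, 272 and 293 CPM in the knockdown replicates and 422, 275 and 345 CPM in the control replicates, so that control replicate 1, which also had the most Nhlh1, was the highest, and 8 of 10 of these markers lay below the control. Their part in the values of the proneural genes was not tested.

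**Figure D5:**
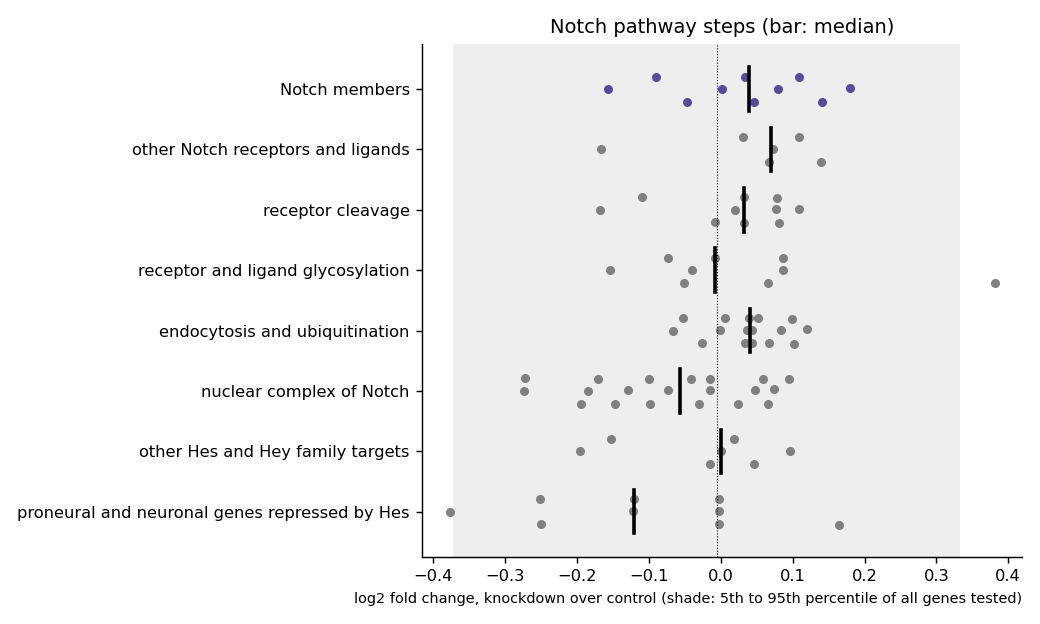
Log2 fold change, knockdown over control, of the tested genes of each list, with the median as a black bar and the 5th to 95th percentile of all genes tested shaded, from -0.37 to 0.33. The members lie within the shaded range, and the medians of the lists lie between -0.12 and 0.070.

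Notch4 and Dlk1 could not be tested on counts. Both are listed more than once in the count tables, and every copy had 0 counts in all 6 libraries, although the deposited FPKM tables give them values above 0. None of the 10 members is listed more than once. Notch4, the receptor of blood vessels, was at 0.138, 0.199 and 0.0833 FPKM in the knockdown replicates and 0.197, 0.169 and 0.261 FPKM in the control replicates. Dlk1, an imprinted gene for a Delta-like protein that lacks the domain by which ligands activate Notch, was named after its values were seen. It was at 13.2, 21.6 and 16.9 FPKM in the knockdown replicates and 23.6, 24.1 and 34.8 FPKM in the control replicates, with every knockdown library below every control library. On the log2(FPKM + 0.1) scale its fold change was -0.68, with an unadjusted p of 0.0222 and an adjusted p of 1.00 in limma over 14666 genes. In that fit 662 genes had an unadjusted p under 0.05. The share of all genes whose FPKM groups do not overlap was not determined. The copy has FPKM values of its own, so the level of Dlk1 is uncertain.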

How the data were processed

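Per the file headers and the values, the authors deposited whole-number counts per gene and FPKM (fragments scaled to transcript length and library size, in the layout of Cufflinks), with 1 table of each kind per library. The submitters' processing notes name bcl2fastq 2.20, Cufflinks 2.2.1, DESeq2 and the build GRCm38 (mm10). The library kit keeps strand, per the labels, but the aligner, counter and use of strand are not named in the sources used here, so reads of overlapping genes (non-coding genes at Notch1, Notch2 and Notch3, and an annotated gene at Hey1) could not be kept apart; each had at most 157 counts in a library. Positions of all 10 members in the FPKM tables matched the RefSeq table of GRCm38.p6.

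Counts were tested with edgeR 4.0.16 (R 4.3.3): filterByExpr, TMM scaling, the quasi-likelihood test with the group alone, and Benjamini-Hochberg adjustment over the 17439 genes tested at a threshold of 0.05. Intervals are at 95%. Log2 CPM for profiles used a prior count of 2. No 2 libraries of a group were duplicates, their chi-square over degrees of freedom being 12.8 or more. Alternatives used limma 3.58.1 and DESeq2 1.42.0. Members and lists were chosen with earlier results of these data known. The rule for named genes took the members, the 2 genes of smallest p per pathway list and each member's nearest profile. Of the pathway genes, Rbpj, Tle4, Dll4, Hey2, Notch4 and Dlk1 were named outside this rule, Tle4 and Dlk1 after their values were seen. Some genes that this rule names are not reported here.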

Additional observations from a re-analysis of the deposited data

How the results depend on the processing

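Across 17 alternatives (other scalings, filters, tools and units, the replicate block, and each library left out) 0 members and 0 genes of the pathway lists were called. All 110 values of the members under the 11 alternatives that kept every library had the sign of the reported value, and 52 of 60 did with 1 library left out; the smallest adjusted p was 0.999. With a library left out the range was -0.077 to 0.013 for Notch2, -0.43 to 0.0064 for Dll3, -0.043 to 0.092 for Hes1, -0.020 to 0.12 for Hey1, -0.18 to 0.056 for Nrarp, -0.059 to 0.60 for Mfng, -0.29 to 0.012 for Heyl, -0.43 to 0.35 for Helt and -0.65 to 0.063 for Nhlh1. Without a change of sign, Furin ran from 0.048 to 0.22 and Lfng from 0.041 to 0.18. The median of the members ran from -0.00667 to 0.10. Helt was 0.034 with limma on log2 FPKM and no filter. Over all genes, edgeR without the filter on low counts called 11 (5 higher, 6 lower) and DESeq2 called 1; the cause was not tested. The labels do not say that a replicate number marks a shared culture, so the numbers were not taken to pair libraries in the main fit. Same-numbered libraries deviated together with correlations of 0.22, 0.23 and 0.04 over all genes tested. For differently numbered libraries the correlations ran from -0.26 to 0.07, so a pairing is possible. With the replicate block 0 genes were called and the median of the members was 0.04. In edgeR 258 genes had an unadjusted p under 0.05 with the block, and 191 without it. At this depth the intervals bound a change of Dll3, the member with fewest counts, least closely, between 0.651-fold and 1.23-fold.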
